A study of Mus musculus with 20 samples.

Results

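The semaphorin, netrin, ephrin and Slit guidance genes were followed in MLE12 cells, a line of mouse alveolar epithelium, after transfection with the intracellular domain of Notch1 (NICD1). The set was chosen with earlier results of these data known, and its members were taken by gene symbol, without the unrelated Slitrk genes. They were semaphorins of classes 3 to 7, plexins, netrins, Unc5 receptors, A and B ephrins, EphA and EphB receptors, Slit and Robo genes. The array annotation named 66 such genes, and 63 of them had enough values to be tested, among 17051 genes in all. The other 3, Epha7, Epha10 and Unc5cl, had too few values and are not described further. The 63 genes were read by 103 rows of the table, 35 of them by 1 row and 28 by several.

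Each of the 20 arrays set RNA of cells transfected with the NICD1-pIRES-DsRed2 plasmid against RNA of cells given the empty vector, labelled with Cy5 and Cy3. There were 6 arrays at 12 h after transfection, 7 at 24 h and 7 at 48 h, each an independent replicate per the series design. NICD1 RNA carried Cy5 on 3 arrays at each time and Cy3 on the others. Both kinds of cell received Lipofectamine2000 and grew in the same serum-containing medium with hydrocortisone, estradiol, insulin and transferrin. MLE12 is a single line that carries the large T antigen of SV40. The share of cells that took up the plasmid, or whether transfected cells were sorted, was not given in the sources used here. A value is the log2 ratio of NICD1 over empty vector, so 0 means equal signal and 1 a doubling, and it covers all cells of a culture: a change in the share of cells and a change in RNA per cell cannot be told apart. The values used are ratios, so the levels of the lung epithelial markers could not be checked.

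Guidance genes were first studied as cues that steer growing axons, and most of them also act outside the nervous system. Semaphorins signal through plexins, the secreted class 3 members mostly with a neuropilin as co-receptor. Netrins bind Dcc, neogenin and the Unc5 receptors, ephrins on one cell bind Eph receptor tyrosine kinases on its neighbour, and Slits bind Robo receptors. In the lung these families are known for parts in airway branching, in vessel growth and in contacts between epithelial cells. NICD1 is the part of the receptor that is released by cleavage, enters the nucleus and activates genes together with the DNA-binding protein RBPJ.

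Nrarp, a direct Notch target, stood at 2.08 ± 0.20, 2.61 ± 0.19 and 2.29 ± 0.19 at 12, 24 and 48 h (SE, n = 6, 7 and 7). The sign of Nrarp is no check of direction, since reading all columns as NICD1 over empty vector rests on its known rise. Notch1 stood at 0.28, 0.60 and 1.07 and did not pass the test at 12 h (limma adjusted p = 0.967). Its 24 h call (limma adjusted p = 0.0217) was lost without any one of 5 arrays. Whether the Notch1 rows also read RNA of the NICD1 plasmid was not tested. The deposited signs of replicate 3 at 12 h and of replicate 3 at 48 h were opposite to the other arrays, so both were multiplied by -1, and the sign of Nrarp had a part in that choice. Across genes, the pairs among 48 h replicates 5, 6 and 7 had correlations of 0.653 to 0.686. Pairs among replicates 1 to 4 had 0.102 to 0.322, and pairs between the sets 0.0505 to 0.399. The main counts at 48 h and the values of some genes are therefore given with and without those 3 arrays.

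Promoter sequences are shown for the guidance genes whose ratios held best and for a related receptor, since NICD1 acts through RBPJ, whose core DNA letters are TGGGAA. RefSeq promoters of GRCm38.p6, 250 bases before to 50 after the gene start, were at hand for 54 of the 63 genes. Each is read 5′ to 3′ on the gene's strand, and capitals mark TGGGAA or its reverse complement TTCCCA. The window of Ntn4 is chr10:93640799-93641098 (+ strand), that of Plxnb1 chr9:109095186-109095485 (+), that of Plxnb2 shown here chr15:89180739-89181038 (- strand) and that of Plxnd1 chr6:115994956-115995255 (-).
Ntn4: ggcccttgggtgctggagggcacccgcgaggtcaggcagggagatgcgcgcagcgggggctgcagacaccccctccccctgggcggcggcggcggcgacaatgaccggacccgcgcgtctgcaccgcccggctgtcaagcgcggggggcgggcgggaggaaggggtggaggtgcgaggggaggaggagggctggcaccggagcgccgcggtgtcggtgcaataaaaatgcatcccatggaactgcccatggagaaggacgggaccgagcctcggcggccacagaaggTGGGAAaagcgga
Plxnb1: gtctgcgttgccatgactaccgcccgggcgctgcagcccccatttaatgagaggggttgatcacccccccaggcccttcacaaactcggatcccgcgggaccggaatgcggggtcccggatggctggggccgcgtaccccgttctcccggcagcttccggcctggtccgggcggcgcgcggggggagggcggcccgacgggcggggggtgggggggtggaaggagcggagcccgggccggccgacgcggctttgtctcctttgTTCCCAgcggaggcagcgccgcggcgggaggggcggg
Plxnb2: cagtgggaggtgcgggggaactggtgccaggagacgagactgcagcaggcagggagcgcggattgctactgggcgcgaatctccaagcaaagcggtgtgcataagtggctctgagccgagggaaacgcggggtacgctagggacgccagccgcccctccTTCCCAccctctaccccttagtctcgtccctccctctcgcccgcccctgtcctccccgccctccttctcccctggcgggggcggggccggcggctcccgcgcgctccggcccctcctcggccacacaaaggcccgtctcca
Plxnd1: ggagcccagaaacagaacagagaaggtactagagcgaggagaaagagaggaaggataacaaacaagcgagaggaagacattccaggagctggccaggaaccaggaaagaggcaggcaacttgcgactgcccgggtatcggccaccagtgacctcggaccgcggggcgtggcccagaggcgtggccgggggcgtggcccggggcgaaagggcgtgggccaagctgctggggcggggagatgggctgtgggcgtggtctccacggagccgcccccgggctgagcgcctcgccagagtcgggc
The match lay 38 bases after the start in Ntn4, 14 bases after it in Plxnb1 and at -91 from it in Plxnb2, and the Plxnd1 window held none. The table has a second Plxnb2 promoter, at another start, that held none either. Other plexins that passed at 48 h are not shown: the windows of Plxna2, Plxna3 and Plxnb3 held 0 matches and that of Plxnc1 held 1. The windows shown are therefore not a fair sample of the guidance genes. TGGGAA, on either strand, was in 14 of the 54 guidance genes (25.9%), against 28.3% of 27025 genes with a promoter in the table. Among guidance genes that passed the test at 48 h it was in 6 of 18 (33.3%), and among the others in 8 of 36 (22.2%). The longer GTGGGAA, which contains TGGGAA, was in 2 of the 54, Ntn4 and Plxnb2, and in 7.25% of all genes. A match is a run of letters and not a measured binding site.

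Ntn4 was the only guidance gene that passed the test at 12 h and at 24 h, and it was about double in NICD1 cells at both times. It encodes netrin 4, a secreted, laminin-related netrin of basement membranes. The test was limma's moderated two-sided test of each time, with p-values adjusted by Benjamini and Hochberg's method for 17051 genes and 0.05 as the limit for a pass. At 12 h, 1 of 63 guidance genes passed higher and 0 lower, against 0.0528% of all genes higher and 0.229% lower. At 24 h the same counts stood against 0.369% higher and 1.3% lower. At an unadjusted p under 0.05, 3 guidance genes were higher and 1 lower at 12 h, and 8 were higher and 1 lower at 24 h. Over all genes the unadjusted shares were 2.57% higher and 2.79% lower at 12 h, and 3.52% higher and 4.83% lower at 24 h, so the 12 h counts were near the background.

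The Ntn4 ratio on the 6 arrays of 12 h was 0.81, 0.97, 0.84, 1.62, 1.12 and 0.76 in replicate order. On the 7 arrays of 24 h it was 0.84, 0.74, 1.22, 0.65, 0.89, 1.19 and 0.95. On the 7 arrays of 48 h it was 0.49, 1.18, 0.39, -0.14, 0.73, -0.04 and 0.60. Every array of 12 and 24 h was well above 0, while at 48 h replicates 4 and 6 lay just below it. The fitted log2 ratio of Ntn4 (Entrez Gene 57764, chromosome 10, 1 row) was 1.02 ± 0.14 at 12 h (SE, n = 6; limma adjusted p = 0.000576), a 2.03-fold difference. It was 0.91 ± 0.13 at 24 h (n = 7; limma adjusted p = 0.000185), 1.88-fold, and 0.45 ± 0.13 at 48 h (n = 7; limma adjusted p = 0.0151), 1.37-fold. The 48 h ratio minus the 24 h ratio was -0.46, with a 95% interval of -0.85 to -0.07, and did not pass after adjustment over all genes (limma adjusted p = 0.135). The calls at 12 and 24 h held whichever single array was left out. The 12 h call was lost with the turned arrays as deposited (0.74; limma adjusted p = 0.784) and with the times fitted separately (limma adjusted p = 0.104), and the 48 h call without 48 h replicate 2 (0.30; limma adjusted p = 0.0679).

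The other 5 netrins did not pass at any time. Ntn1, the netrin studied most in axon guidance, stood at 0.08 ± 0.18, 0.14 ± 0.17 and 0.07 ± 0.17 at 12, 24 and 48 h. Ntn3 stood at -0.31 ± 0.21, 0.29 ± 0.19 and 0.49 ± 0.19, with a limma adjusted p of 0.066 at 48 h. Ntn5 lay between -0.25 and 0.12, and the membrane-anchored netrins G, Ntng1 and Ntng2, between -0.22 and 0.50 over the 3 times. Some intervals were wide: that of Ntn5 at 12 h ran from -1.08 to 0.58. Whether Ntn4 differed from them was not tested.

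**Figure D1:**
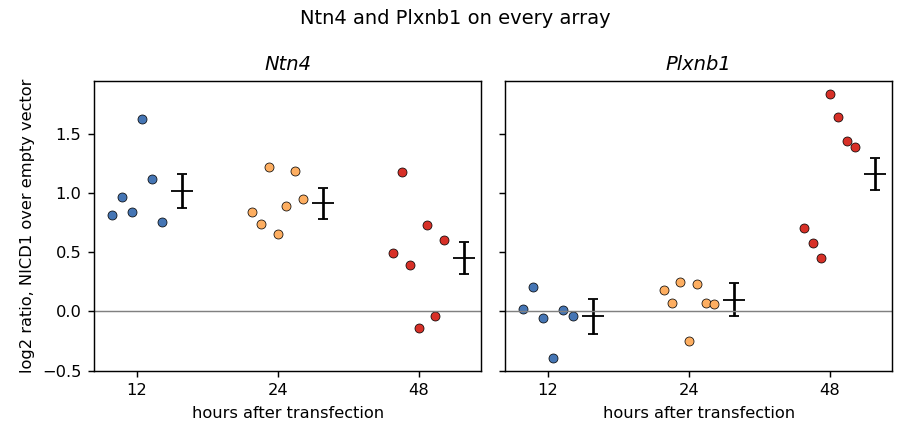
Log2 ratio of NICD1 over empty vector (vertical axis) of Ntn4 and Plxnb1 on every array at 12, 24 and 48 h (horizontal axis). Points are arrays, coloured by time and in replicate order from left to right, and the black marks are the fitted ratio with bars of 1 SE. Ntn4 lies between 0.65 and 1.62 at 12 and 24 h, and Plxnb1 between 0.45 and 1.84 at 48 h but between -0.39 and 0.25 before.

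At 48 h, 18 of the 63 guidance genes (28.6%) were higher in NICD1 cells and 2 (3.17%) were lower, Plxnc1 and Efna1, while 43 did not pass. Over all genes 14% passed higher and 13.8% lower, so the share of higher calls was above the background and that of lower calls below it. Receptors had 12 higher and 1 lower of 27, and ligands 6 higher and 1 lower of 36. The changes were modest: only Plxnb1 reached an absolute log2 ratio of 1. Of the 18, 8 were above 0 on all 7 arrays, and the like share over all genes that passed higher was not counted. Without 48 h replicates 5, 6 and 7, only 2 guidance genes passed, Plxnb1 and Plxnd1, both higher, against 1.51% of all genes higher and 2.18% lower. With the 48 h arrays fitted alone only Plxnb1 passed, against 0.393% of all genes higher and 0.979% lower. Leaving out only replicate 5 left 11 higher and 13 passing in all, against 3497 of 17051 genes. Leaving out only replicate 6 left 9 higher and 10 passing in all, against 2992 of 17051 genes. At an unadjusted p under 0.05 in the fit of all arrays, 21 were higher and 2 lower, against 19.2% and 18.5% of all genes.

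The guidance genes as a whole lay slightly above 0. Their median log2 ratio was 0.08 at 12 h, 0.08 at 24 h and 0.16 at 48 h, against 0.00, 0.01 and -0.01 over all genes tested. At 48 h 47 of the 63 ratios were above 0 (74.6%), against 49.2% of all genes. Array by array, the median of the guidance genes ran from 0.01 to 0.12 at 12 h, from -0.04 to 0.30 at 24 h and from -0.02 to 0.29 at 48 h. The 12 h median was 0.0108 with the turned arrays as deposited.

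**Figure D2:**
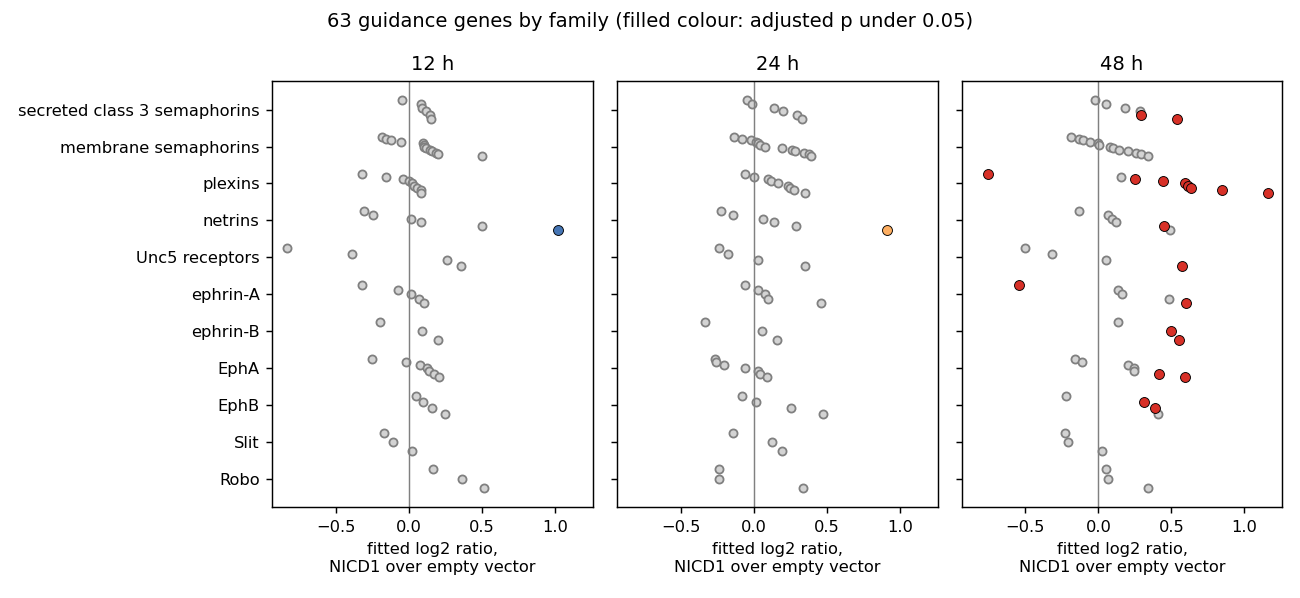
Fitted log2 ratio of NICD1 over empty vector of the 63 guidance genes (horizontal axis), by family (rows), at 12, 24 and 48 h (panels). Each point is a gene, grey where it did not pass and in strong colour where it passed the test, 1 at 12 h, 1 at 24 h and 20 at 48 h. The plexins at 48 h spread from -0.76 to 1.16, while the membrane semaphorins lie between -0.19 and 0.34.

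Of the plexins, the semaphorin receptors, 8 of 9 changed at 48 h, against 14% of all genes higher and 13.8% lower. Among the 9, 7 were higher in NICD1 cells, Plxnc1 was lower and only Plxna4 did not pass, with a median of 0.59. None of the 9 passed at 12 or 24 h, where their ratios ran from -0.32 to 0.08 and from -0.06 to 0.35, and at an unadjusted p under 0.05 there were 0 and 1. The median over the plexins was positive on all 7 arrays of 48 h, at 0.31, 0.14, 0.08, 0.64, 0.58, 0.64 and 0.44. It was lower on replicates 1, 2 and 3 than on replicates 4 to 7. Without replicates 5, 6 and 7 the median was 0.38, and 2 plexins passed, both higher, against 1.51% of all genes higher and 2.18% lower.

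Plxnb1, the receptor of Sema4d that acts on the small GTPase RhoA, had the largest ratio. On the 7 arrays of 48 h it was 0.70, 0.58, 0.45, 1.84, 1.64, 1.44 and 1.39, so all were above 0 and replicates 4 to 7 stood above the first 3. At 24 h it was 0.18, 0.07, 0.25, -0.25, 0.23, 0.07 and 0.07, and at 12 h 0.02, 0.21, -0.05, -0.39, 0.01 and -0.04. No array of 12 or 24 h reached the lowest array of 48 h. The fitted ratio of Plxnb1 (Entrez Gene 235611, chromosome 9) was 1.16 ± 0.14 at 48 h (SE, n = 7; limma adjusted p = 1.11e-05), 2.24-fold, against 0.10 ± 0.14 at 24 h and -0.04 ± 0.15 at 12 h. Its 2 rows stood at 1.32 and 1.00. It still passed without replicates 5, 6 and 7 (0.89 ± 0.16; limma adjusted p = 0.00428) and in the 48 h arrays alone (limma adjusted p = 0.0324). Its ligand Sema4d did not pass, at -0.06 ± 0.11 (95% interval -0.28 to 0.16).

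Plxnd1, a receptor of Sema3e known from blood vessel patterning, was higher on all 7 arrays of 48 h, at 1.02, 0.68, 0.54, 1.19, 0.28, 0.25 and 0.25. Here replicates 5, 6 and 7 were the lowest of the 7. At 24 h it lay between -0.11 and 0.79 with a median of 0.43, and at 12 h between -0.28 and 0.71 with a median of -0.03. The fitted ratio of Plxnd1 (Entrez Gene 67784, chromosome 6, 1 row) was 0.59 ± 0.14 at 48 h (n = 7; limma adjusted p = 0.00372) and 0.86 ± 0.17 without those arrays (limma adjusted p = 0.00944). It did not pass in the 48 h arrays alone (limma adjusted p = 0.0865) or with the turned arrays as deposited (0.0576). Its ligand Sema3e stood at 0.28 ± 0.13 (limma adjusted p = 0.102).

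The A plexins, which carry class 3 semaphorin signals together with neuropilins, passed as higher at 48 h except for Plxna4. Plxna3 ranged from -0.20 to 1.67 with a median of 0.77, and its fit was 0.85 ± 0.19 (limma adjusted p = 0.00322). Plxna2 ranged from 0.04 to 1.38 with a median of 0.64, and its fit was 0.61 ± 0.14 (limma adjusted p = 0.00316). Plxna1 passed at 0.25 ± 0.07 (limma adjusted p = 0.0124), the smallest change that passed, with its 2 rows apart at 0.49 and 0.01. Plxna4 stood at 0.16 ± 0.13, with its rows at 0.41 and -0.09. Without replicates 5, 6 and 7, Plxna3 was at 0.38 ± 0.20 and Plxna2 at 0.25, and neither passed (limma adjusted p = 0.324 and 0.289).

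The other B plexins also rose. Plxnb2, an epithelial plexin, ranged from 0.06 to 1.17 with a median of 0.63, above 0 on all 7 arrays, and its fit was 0.63 ± 0.13 (limma adjusted p = 0.00192), which did not pass without replicates 5, 6 and 7 (limma adjusted p = 0.135). Plxnb3 ranged from 0.08 to 0.91 with a median of 0.41, and its fit of 0.44 ± 0.15 (limma adjusted p = 0.0358) no longer passed without any one of 48 h replicates 2, 4, 5, 6 and 7.

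Plxnc1, the receptor of Sema7a, went the other way and was below 0 on all 7 arrays of 48 h, from -1.20 to -0.12 with a median of -0.82. Its fit was -0.76 ± 0.14 (limma adjusted p = 0.001), and -0.47 ± 0.17 without replicates 5, 6 and 7, which did not pass (limma adjusted p = 0.135). Sema7a stood at -0.19 ± 0.15 and did not pass.

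**Figure D3:**
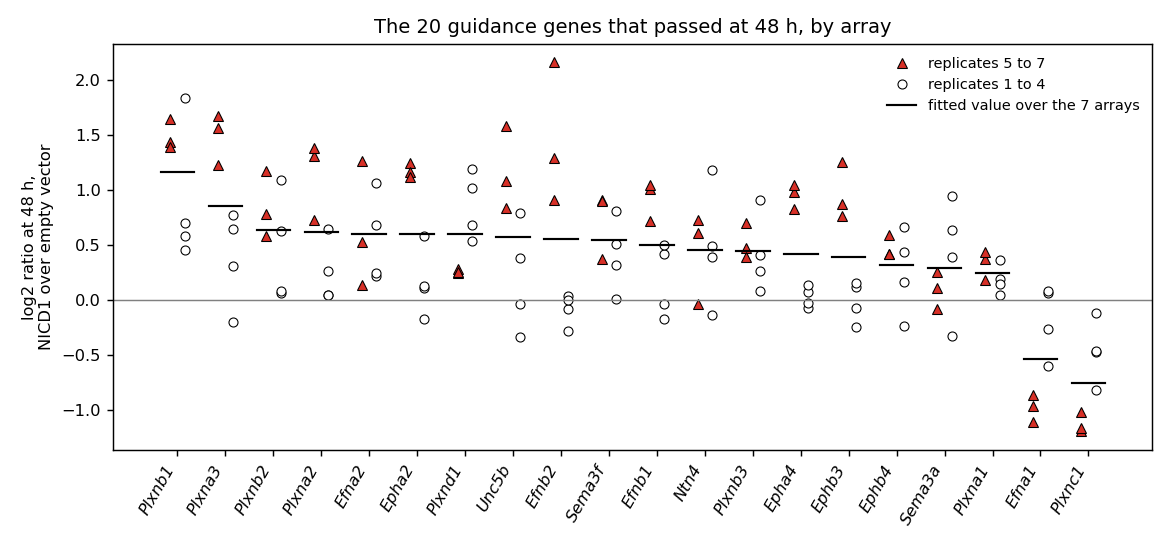
Log2 ratio of NICD1 over empty vector at 48 h (vertical axis) of the 20 guidance genes that passed at that time (horizontal axis), on each of the 7 arrays. Red triangles are replicates 5 to 7, open circles replicates 1 to 4, and the line is the fitted ratio. The 2 sets of arrays do not overlap in 11 of the 20 genes, against 51.6% of all 4747 genes that passed at 48 h: replicates 5 to 7 lie above the others in 8, such as Efnb2, and below them in 3, Plxnd1, Efna1 and Plxnc1.

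Semaphorins, the plexin ligands, had 2 of 19 genes higher at 48 h and 0 lower, against 14% of all genes higher and 13.8% lower, so the share of higher calls was near the background. Of 6 secreted class 3 genes, 2 passed. Sema3f, which signals mainly through neuropilin 2, ranged from 0.01 to 0.91 with a median of 0.50 and was fitted at 0.54 ± 0.13 (limma adjusted p = 0.00472). Sema3a, which signals mainly through neuropilin 1, passed at 0.29 ± 0.10 (limma adjusted p = 0.0405). Its call was lost without any one of 12 h replicate 5 and 48 h replicates 1, 2, 4, 5 and 6. Its 3 rows stood at 0.02, 0.10 and 0.94 at 48 h, the last with values on only 5 of the 7 arrays, and the first 2 did not pass. Of the 13 membrane semaphorins, 0 passed at 48 h in limma and 0 at an unadjusted p under 0.05, against 19.2% higher and 18.5% lower of all genes unadjusted. Their ratios ran from -0.19 in Sema7a to 0.34 in Sema4g with a median of 0.08. The largest of them at any time was Sema6a at 12 h, 0.50 ± 0.16, which did not pass (limma adjusted p = 0.519).

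Eph receptors and ephrins had 7 higher and 1 lower of 19 genes at 48 h, against 14% of all genes higher and 13.8% lower. The lower gene was Efna1, a membrane-anchored ligand of the receptor Epha2. Efna1 ranged from -1.11 to 0.08 with a median of -0.60, with replicates 5, 6 and 7 the 3 lowest, and was fitted at -0.54 ± 0.15 (limma adjusted p = 0.00991). Epha2, the main Eph receptor of many epithelia, ranged from -0.18 to 1.25 with a median of 0.58 and was fitted at 0.60 ± 0.14 (limma adjusted p = 0.00426). Its replicates 5, 6 and 7 lay between 1.12 and 1.25, against -0.18 to 0.58 on replicates 1 to 4, and without them it was at 0.16 and Efna1 at -0.18. Neither passed there, and Efna1 also not without replicate 6 alone.

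Efna2, another A ephrin, ranged from 0.13 to 1.26 with a median of 0.52 at 48 h and was fitted at 0.60 ± 0.16 (limma adjusted p = 0.0102). Efnb1, a transmembrane ephrin, ranged from -0.18 to 1.04 with a median of 0.50 and was fitted at 0.50 ± 0.14 (limma adjusted p = 0.0123). The Efna2 call was lost without replicate 6, and the Efnb1 call without replicate 5 or without replicate 6. Efna3 and Efna5 did not pass, at 0.48 ± 0.31 and 0.16 ± 0.18.

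Efnb2, the ephrin of arterial endothelium and a ligand of Ephb4, rested on 3 arrays. It lay between 0.91 and 2.16 on replicates 5, 6 and 7, against -0.28 to 0.03 on replicates 1 to 4. The fitted 0.55 ± 0.20 (limma adjusted p = 0.0425) became -0.08 ± 0.09 without them (limma adjusted p = 0.648), and the call was lost without any one of 12 of the 20 arrays, those 3 among them. Epha4 and Ephb3 had the same split: Epha4 lay between 0.83 and 1.04 against -0.08 to 0.13, and Ephb3 between 0.76 and 1.26 against -0.25 to 0.15. Their fits were 0.41 ± 0.12 and 0.39 ± 0.13 (limma adjusted p = 0.0171 and 0.0315), and both calls were lost without any one of those 3 arrays. Without all 3, Epha4 stood at 0.02 and Ephb3 at -0.01. Ephb4 passed at 0.32 ± 0.11 (limma adjusted p = 0.0459), with its 2 rows at 0.51 and 0.13, and not without any one of 12 arrays. Ephb6, a kinase-dead Eph receptor, stood at 0.41 ± 0.29, and at 1.04 ± 0.34 without replicates 5, 6 and 7, and passed in neither fit (limma adjusted p = 0.338 and 0.107).

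Among the Unc5 receptors of netrins, Unc5b was higher at 48 h and the other 3 did not pass. Unc5b, known as a netrin receptor of blood vessels, ranged from -0.34 to 1.58 with a median of 0.79 and was fitted at 0.57 ± 0.17 (limma adjusted p = 0.0155). It was at 0.20 without replicates 5, 6 and 7, and the call was lost without replicate 6 or without replicate 7. Unc5a had the widest departure of the family at 12 h, -0.84 ± 0.35, which did not pass (limma adjusted p = 0.857).

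Slit and Robo genes showed no change that passed at any time. At 48 h the 3 Slits lay between -0.23 and 0.03 and the 3 Robos between 0.05 and 0.34, with 0 of 6 past limma's threshold and 0 at an unadjusted p under 0.05. Over all genes 14% passed higher and 13.8% lower, and 19.2% and 18.5% at the unadjusted limit, so 0 of so few genes says little. Slit2, the best known Robo ligand, stood at -0.23 ± 0.13 (95% interval -0.51 to 0.05), and Robo4, the endothelial Robo, at 0.34 ± 0.18 (-0.04 to 0.73). Robo1 stood at 0.51 ± 0.20 at 12 h and -0.24 ± 0.18 at 24 h, neither a pass, though the 12 h value was past an unadjusted p of 0.05 in limma.

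The effect of averaging rows was seen in genes read by several rows, picked here after their values were seen. At 48 h the lowest and highest rows of Robo1 stood at -0.77 and 0.71, those of Efna5 at -0.42 and 0.74, and those of Ntn1 at -0.40 and 0.54. The row of Robo1 at 0.71 passed on its own (limma adjusted p = 0.026), and so did that of Efna5 at 0.74 (limma adjusted p = 0.00402). The row of Plxna4 at 0.41 also passed (limma adjusted p = 0.025). Fitted row by row, 27 of the 103 rows were higher and 2 lower, against 14.8% and 13.2% of all 28799 rows. The rows of Plxna2 all passed, at 0.35, 0.44 and 1.05.

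**Figure D4:**
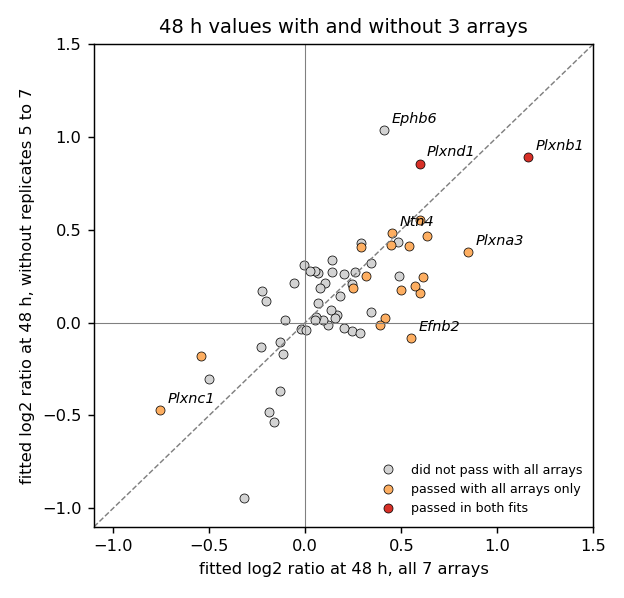
Fitted log2 ratio of NICD1 over empty vector at 48 h of the 63 guidance genes from all arrays (horizontal axis) against the fit without 48 h replicates 5, 6 and 7 (vertical axis), with the line of equality. Grey points did not pass with all arrays, orange points passed with all arrays only and red points in both fits. Plxnb1 and Plxnd1 passed in both, and Efnb2 stands at 0.55 on the horizontal and -0.08 on the vertical axis.

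Between 12 and 24 h the ratio of 0 guidance genes changed past limma's threshold, against 0.129% of all genes higher and 0.768% lower, and 1 was higher and 1 lower at an unadjusted p under 0.05. Between 24 and 48 h it changed for 1, Plxnb1, higher at 48 h by 1.06 (95% interval 0.66 to 1.46; limma adjusted p = 0.0254), against 1.07% of all genes higher and 0.985% lower. This call was lost without any one of 8 arrays (24 h replicates 2, 4, 5 and 7 and 48 h replicates 4 to 7), and without 48 h replicates 5, 6 and 7 together (0.79; limma adjusted p = 0.283). For the other 19 guidance genes that passed at 48 h and not the difference, a change between the times was not shown.

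Co-receptors and effectors of guidance signals formed a second list, of which 41 of 44 genes were tested. At 12 h 0 passed in limma, with 1 higher and 3 lower at an unadjusted p under 0.05. At 24 h only Flrt3, which encodes a transmembrane ligand of Unc5 receptors, passed, at 0.59 ± 0.10 (limma adjusted p = 0.00101), and not with 24 h fitted alone (0.0515). It ranged from 0.22 to 0.96 at 24 h, above 0 on all 7 arrays, and was at 0.40 ± 0.10 at 48 h (limma adjusted p = 0.00538). At 48 h 13 of the 41 were higher and 2 lower, with a median of 0.21, against 14% and 13.8% of all genes and a median of -0.01. Without replicates 5, 6 and 7 only 2 passed, both higher, against 1.51% of all genes higher and 2.18% lower.

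Nrp2, the neuropilin that pairs with A plexins to receive Sema3f, ranged from 0.24 to 1.49 at 48 h with a median of 0.86, above 0 on all 7 arrays. Its fit was 0.87 ± 0.13 (limma adjusted p = 0.000155), and it passed without replicates 5, 6 and 7 (0.60; limma adjusted p = 0.034) and in the 48 h arrays alone (0.049). Rgma, a ligand of neogenin, ranged from 0.02 to 1.41 with a median of 0.87 and was fitted at 0.82 ± 0.14 (limma adjusted p = 0.000565). The Rgma call was lost without replicates 5, 6 and 7. Neogenin itself, Neo1, which binds netrins and Rgma and was added after its value was seen, was higher at 0.63 ± 0.15 (limma adjusted p = 0.0035), with 0.17 without replicates 5, 6 and 7, while the netrin receptor Dcc stood at 0.22 ± 0.20 and did not pass.

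The effectors Farp1, Mical1 and Nck1 moved further but mostly on replicates 5, 6 and 7. Farp1, a guanine nucleotide exchange factor of the plexin pathway, ranged from 0.22 to 2.32 with a median of 0.62 and was fitted at 1.12 ± 0.21 (limma adjusted p = 0.000852), and at 0.43 without those arrays (limma adjusted p = 0.0365). Its ratio was higher at 48 h than at 24 h by 1.16 (limma adjusted p = 0.048), which no longer held when any one of 17 arrays was left out. Mical1, an actin-oxidising enzyme downstream of plexins, was at 0.95 ± 0.20 (limma adjusted p = 0.0022), with 0.23 without them (limma adjusted p = 0.103). Nck1, an adaptor between guidance receptors and actin regulators, ranged from -2.13 to -0.09 and was lower at -0.99 ± 0.18 (limma adjusted p = 0.000886), with -0.42 without them (limma adjusted p = 0.0635).

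Markers of cell types were read beside these genes at 48 h, where 14% of all genes passed higher and 13.8% lower. Of the endothelial markers 0 of 5 passed, of the neuronal 0 of 3, of the leukocyte 0 of 2 and of the mesenchymal 1 of 3, Col1a1, higher at 1.10. At an unadjusted p under 0.05, 2 mesenchymal markers were higher, 1 leukocyte marker was lower, and 0 endothelial or neuronal markers were past it. Over all genes these unadjusted shares were 19.2% higher and 18.5% lower. In the fit without replicates 5, 6 and 7, 1 of the 3 mesenchymal markers passed, higher. Pdgfrb (mesenchymal), Elavl3 (neuronal) and Cd68 (leukocyte) were listed but not tested. Of the 8 alveolar type II markers listed, Sftpa1 and Sftpd were not tested. Of the other 6, 2 passed as higher, Abca3 at 0.43 and Nkx2-1 at 0.32. The 6 ran from -0.38 to 0.43, with 1 below 0. Without replicates 5, 6 and 7, 0 of the 6 passed, against 1.51% of all genes higher and 2.18% lower. With the 48 h arrays fitted alone 0 passed either, against 0.393% and 0.979%. None of the markers of any cell type passed at 12 or 24 h. As ratios they do not say which cell types were present, and their part in the results was not tested.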

How the data were processed

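The deposited table held signed values with medians near 0, read as log2 ratios from the values themselves. The authors made them with limma, per the submitters' processing notes, with no version given. Background correction, normalization within arrays and build were not given in the sources used here. Each array had 37041 to 40068 values, 14.2% of all values were missing, and intensities were not used here, so the signal above background is unknown and the number of arrays limits the precision. Of 45220 rows, 33653 had 1 gene symbol, 56 several and 11511 were not listed in the array annotation, which can be old.

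Rows with values on fewer than 4 arrays of a time were left out, and a gene was the mean of its rows. The columns of replicate 3 at 12 h and at 48 h were multiplied by -1: on them the dye pattern correlated with that of the other arrays at -0.188 and -0.200, against 0.0540 to 0.277 on the 18 kept, and deposited Nrarp was -1.93 and -1.58, against 1.31 to 3.24. That all columns read NICD1 over empty vector, and not the inverse, rests on the rise known for Nrarp.

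limma 3.58.1 in R 4.3.3 fitted a coefficient for each of 3 times and a dye term to the 20 arrays together, with 1 variance per gene, so a pass at 1 time leans on the spread at the others. The code was tested on simulated data. The members and lists were chosen with earlier results of these data known. Genes named were those that passed at 12 or 24 h or between times, those that passed at 48 h also without replicates 5, 6 and 7 or alone, the 12 other largest passes at 48 h, and from the co-receptor list those that passed at 12 or 24 h and the 5 largest at 48 h. Others appear in family lists, as ends of ranges or, added after their values were seen, as ligand or receptor partners of a named gene (Sema4d, Sema3e, Sema7a, Neo1, Dcc). Alternatives covered the direction of those columns, the dye term, the arrays fitted, row filters, scaling, array weights, row choice, the replicate number and leaving out each array.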

Additional observations from a re-analysis of the deposited data

Results flagged for a closer look

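In 6 of 90 groups of arrays (6.67%) of the genes described, 1 array stood apart from the others by Dixon's criterion at the 95% level, which marks about 1 group in 20 by chance. Plxnb1 at 24 h was -0.25 on replicate 4, against 0.07 to 0.25 on the others. Plxnd1 at 12 h was 0.71 on replicate 6, against -0.28 to 0.01. Plxnc1 at 24 h was 0.85 on replicate 4, against -0.45 to -0.03. Efna2 at 12 h was 1.11 on replicate 2, against -0.35 to 0.20. Farp1 at 24 h was -0.38 on replicate 5, against -0.04 to 0.14. Nck1 at 12 h was 0.47 on replicate 4, against -0.17 to 0.06. None of these genes passed limma's test at the time in question, and the cause of the single values was not tested.

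In the fit of all arrays the Plxnb1 ratio differed between times, at 48 h above 24 h by 1.06 (limma adjusted p = 0.0254). This call was lost without any one of 8 arrays and without 48 h replicates 5, 6 and 7 together. It was also lost with the turned arrays as deposited and in a fit with the replicate number as a term.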

How the results depend on the processing

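With the 2 turned arrays as deposited, 0 guidance genes were higher at 12 h and 0 at 48 h over 24 h, against 0 and 2 of 17051 genes passing. The 12 h median of the guidance genes was 0.0108 there. With each time fitted alone, 0 were higher at 12 h, and 1 was higher and 0 lower at 48 h, against 18 and 234 of 17051 genes passing. Without 48 h replicates 5, 6 and 7, 2 were higher and 0 lower at 48 h, against 630 of 17051 genes passing. There 0 were higher at 48 h over 24 h, against 8 genes passing, and Efnb2 at 48 h turned to -0.084 and Ephb3 to -0.012. Scaling the arrays left 10 higher at 48 h, with 12 of 63 passing in all, against 3219 of 17051 genes. For the difference between 24 and 48 h, leaving out the turned arrays gave 2 higher and 2 lower of 63, against 1994 of 16685 genes passing. Rows with a value on every array gave 2 higher and 1 lower of 56, against 1323 of 14135 genes. With 1 row per gene 2 of 63 were higher, against 188 of 17051 genes passing. The cause of these shifts was not tested, beyond fewer arrays entering some fits. Leaving out 1 array at a time gave 9 to 20 higher and 1 to 2 lower at 48 h, and 0 to 2 higher and 0 to 3 lower at 48 h over 24 h. The 9 came without 48 h replicate 6, where 10 of 63 passed in all, against 2992 of 17051 genes. Over all genes, 234 to 5443 passed at 48 h and 2 to 2103 for the difference between 24 and 48 h, depending on the setting. Deviations of same-numbered arrays of different times had correlations of -0.132 to 0.139, with 1 of 19 pairs above 0.1. As each value is a ratio within a time, this cannot decide whether the numbers pair the samples. A fit with the replicate block kept 1 call at 12 h, 1 at 24 h and 18 of 20 at 48 h, against 38, 254 and 4368 of 17051 genes passing. In that fit 0 guidance genes were higher at 48 h over 24 h, against 9 genes passing. For the named genes, 4229 of the values under other settings kept direction and side of the threshold, 170 no longer passed, 36 newly passed and 2 reversed.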
